A study of Homo sapiens with 17 samples.

Results

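The genes that encode the proteins of the cytosolic ribosome were examined in 8 peak lists from ChIP-seq of Flag-tagged H2A.Z. The cells were Caco-2/15, derived from a human colon carcinoma, which take on features of absorptive enterocytes after confluence. Genes were chosen by symbol from the protein-coding genes of chromosomes 1 to 22 and X: RPL or RPS with a number, RPLP0, RPLP1, RPLP2, RPSA and FAU, without the RPS6K kinases, RPS19BP1 and the mitochondrial MRP genes. This gave 86 of 19974 genes, 53 for the large and 33 for the small subunit, and included 8 paralogs named with an added L, such as RPL3L and RPL7L1.

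The 4 groups of 2 lists were tagged H2A.Z.1 in subconfluent cells, tagged H2A.Z.1 in cells 7 days after confluence (postconfluent), and tagged H2A.Z.2 in each of those states. A CRISPR-Cas9 edit had put the Flag tag into the 3′ region of 1 allele, of H2AFZ for H2A.Z.1 or of H2AFV for H2A.Z.2, so all cells kept an untagged allele of the tagged gene and an untagged other isoform. Each group has an Exp1 and an Exp2 list. No other treatment is named, and the sources used here do not give the number of clones behind each tagged line.

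Ribosomal protein genes are among the most strongly transcribed housekeeping genes of growing cells, and their products are made in matched amounts. Their transcripts typically start with a C inside a stretch of pyrimidines, the terminal oligopyrimidine (TOP) tract, through which the mTOR pathway controls their translation. H2A.Z is a variant of histone H2A found in nucleosomes that flank the starts of many active or poised genes, where it lies on both sides of a nucleosome-depleted stretch.

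The sequences around the starts of 7 of the genes are printed first, because the position of H2A.Z is given below relative to this point and to the tract at it. Each stretch holds 120 bases before the RefSeq start and 20 from the start on, read 5′ to 3′ on the gene's strand (GRCh38.p14). Capitals mark the longest run of C and T that reaches within 10 bases of the start. RPS14 (chr5:150449720-150449859, minus strand) had the strongest intervals of the family, and RPS3 (chr11:75399398-75399537, plus strand) the weakest among the genes found in all 8 lists. RPLP1 (chr15:69452698-69452837, plus strand) and RPL41 (chr12:56116513-56116652, plus strand) are examples with the summit of H2A.Z before the start, and RPL27 (chr17:42998299-42998438, plus strand) and RPS4X (chrX:72277229-72277368, minus strand) are examples with the summit after it. RPS16 (chr19:39435930-39436069, minus strand) had no interval among the strongest 30603 of any list.
RPS14: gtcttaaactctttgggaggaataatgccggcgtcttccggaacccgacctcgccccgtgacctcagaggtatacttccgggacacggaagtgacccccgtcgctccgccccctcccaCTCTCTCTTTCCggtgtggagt
RPLP1: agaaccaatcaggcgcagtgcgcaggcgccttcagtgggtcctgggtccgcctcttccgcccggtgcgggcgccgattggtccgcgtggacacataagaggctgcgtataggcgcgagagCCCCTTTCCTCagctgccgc
RPL41: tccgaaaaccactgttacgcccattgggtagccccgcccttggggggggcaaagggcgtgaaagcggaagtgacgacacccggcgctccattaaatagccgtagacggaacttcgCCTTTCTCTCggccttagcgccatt
RPS3: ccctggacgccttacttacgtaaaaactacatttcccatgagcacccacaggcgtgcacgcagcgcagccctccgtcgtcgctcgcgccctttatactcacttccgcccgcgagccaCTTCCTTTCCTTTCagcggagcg
RPS16: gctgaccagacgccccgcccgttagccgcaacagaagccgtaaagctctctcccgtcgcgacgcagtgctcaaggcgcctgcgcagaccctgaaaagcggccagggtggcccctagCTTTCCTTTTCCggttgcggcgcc
RPL27: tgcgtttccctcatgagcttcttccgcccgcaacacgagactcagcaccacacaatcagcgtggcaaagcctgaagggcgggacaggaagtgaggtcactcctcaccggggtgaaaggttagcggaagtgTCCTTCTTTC
RPS4X: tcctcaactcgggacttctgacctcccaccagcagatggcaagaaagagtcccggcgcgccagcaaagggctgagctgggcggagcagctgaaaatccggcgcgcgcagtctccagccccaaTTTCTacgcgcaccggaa
The first 5 carry a pyrimidine run of 10 to 14 bases at the start, which both RPS14 and RPS3 share although they stand at opposite ends of the family. The run of RPL27 begins 10 bases after its listed start and continues beyond the printed stretch, to 16 bases, and RPS4X has a run of 5 bases.

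The lists held 30603 to 79425 intervals, and the shortest set the number used: from every list the 30603 intervals with the highest −log10 p were kept. The cut-off therefore differed between lists. The weakest −log10 p kept ran from 5.19 (H2A.Z.2 subconfluent Exp2, kept whole) to 16.8 (H2A.Z.1 postconfluent Exp2). The median widths of the intervals kept in these lists were 474 and 873 bp. Peak lists do not give the read depth. A gene was called occupied where at least 1 bp of an interval fell within 1 kb of an end of its gene model. The strength of an interval is given as its percentile by the authors' fold enrichment within its own list. Pearson correlations of gene scores between lists ran from 0.57 to 0.76 over 10919 genes, with groups of the same state and isoform at 0.67 to 0.70. Of 12 intestinal epithelium markers 4 (CDH1, CDX1, CDX2 and HNF4A) were occupied in all 8 lists, against 1 (CD14) of 12 markers of blood cells, fibroblasts and neurons. An H2A.Z interval is not a measure of expression.

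At the list length used here, most ribosomal protein genes carried tagged H2A.Z of both isoforms in both states. In all 8 lists, 72 of 86 (83.7%) were occupied, against 54.7% of all protein-coding genes. With only the strongest 15301 intervals of each list it was 41 (47.7%, against 37.9%), and with lists of equal covered length 40 (46.5%, against 40.2%). In none were 4 of 86 (4.65%), against 32.9%. The same held list by list, with 89.5 to 95.3% of the family occupied against 59.8 to 62.2% of all genes. Among 77 genes for mitochondrial ribosomal proteins, which the nucleus also encodes, 73 (94.8%) were occupied in all 8 lists. Genes with other roles in protein synthesis were also mostly occupied in all 8 lists, with 20 of 20 for RNA polymerase I and its factors, 50 of 55 (90.9%) for ribosome biogenesis and 31 of 38 (81.6%) for translation initiation, elongation and termination. The high share was therefore not particular to the cytosolic ribosome.

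**Figure D1:**
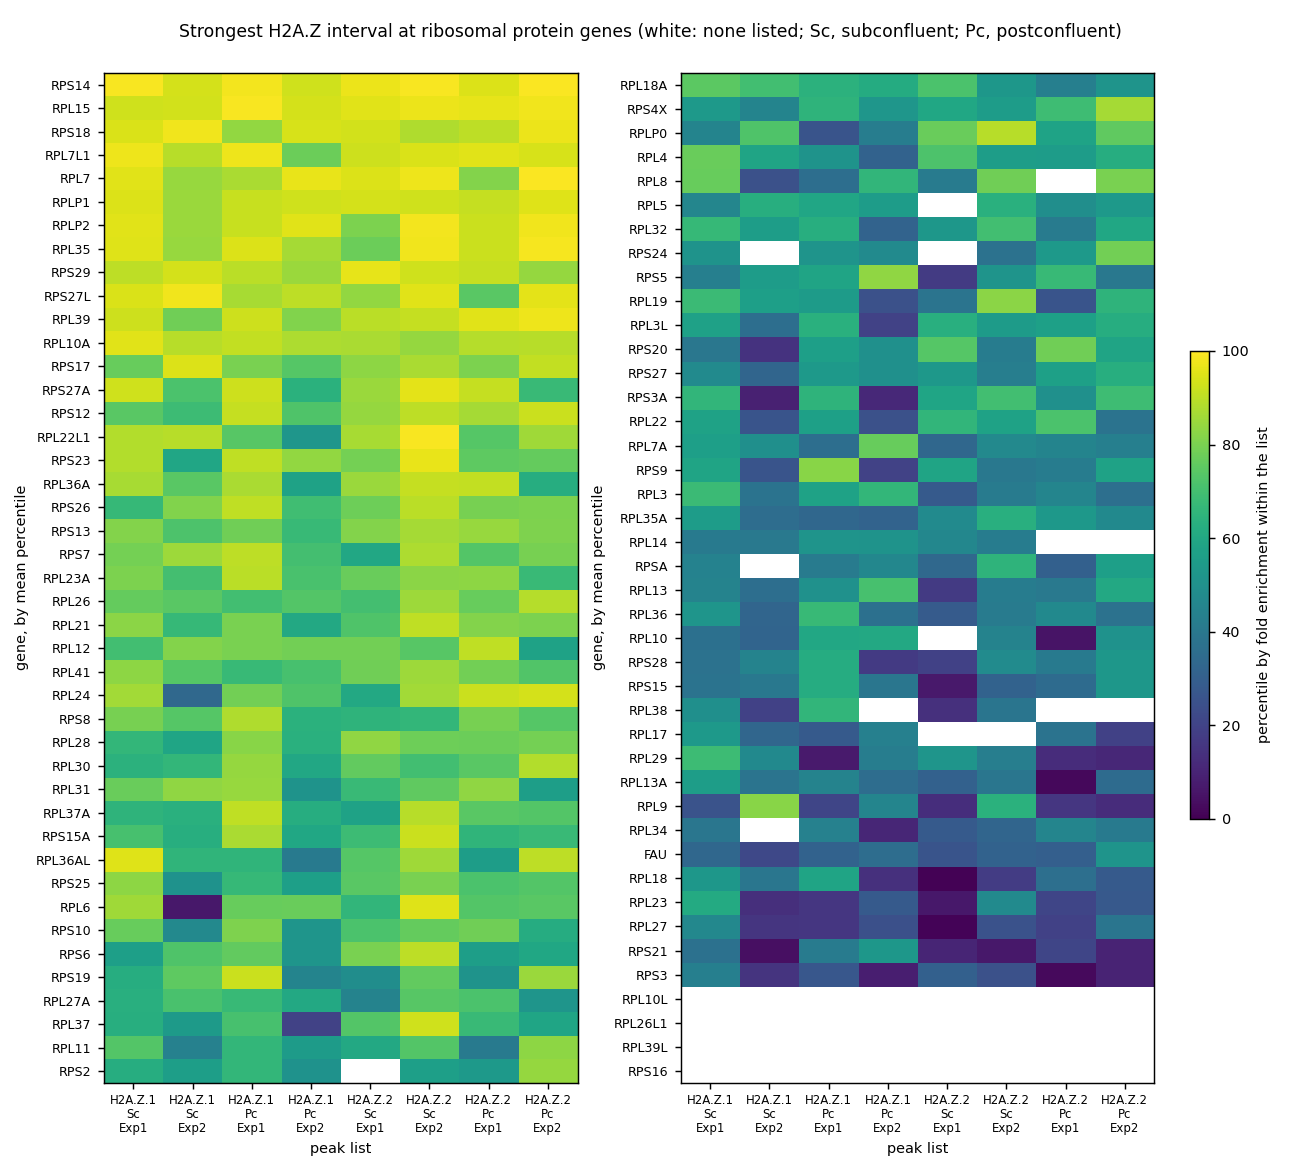
Percentile by fold enrichment (colour, 0 to 100) of the strongest interval at 85 of the 86 ribosomal protein genes (rows, ordered by mean percentile) in each of 8 peak lists (columns). White cells have no interval among the 30603 used; the last 4 rows, RPL10L, RPL26L1, RPL39L and RPS16, are white throughout, and the 10 genes missing from 1 to 3 lists lie in or below the middle of the order.

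Where they were occupied, the genes of the family carried weaker intervals than occupied genes in general. For H2A.Z.1 their median percentile was 66.9 (Exp1) and 58.7 (Exp2) before confluence and 67.2 and 56.4 after it. For H2A.Z.2 it was 66.0 and 73.9 before and 67.9 and 67.7 after. Over all 8 lists the mean was 65.6 ± 5.56 (SD, n = 8 lists), against 75.4 ± 0.984 for all occupied genes, and the family was lower in 8 of 8 lists. Both Exp2 lists of H2A.Z.1 were the lowest for the family. Each value is that of the strongest interval at a gene, and the family had fewer to choose from. Where all 8 lists had an interval at the first RefSeq start, the mean was 1.09 intervals a list, against 1.34 for all genes. How far this lowers the family's percentiles was not tested. Of the 72 genes occupied in all 8 lists, the median of the mean percentile was 68.7, against 76.9 for all 10919 such genes and 80.4 for the 73 mitochondrial ones. Other lists of protein synthesis genes lay between the family and all genes. Regulators and chaperones of ribosomal protein genes had 70.9, and ribosome biogenesis 73.7. Translation factors and genes of other TOP mRNAs had 73.8 each, but these lists share genes such as EIF3F and are not independent. RNA polymerase I and its factors had 75.2. Each list came from a bulk culture, so H2A.Z in fewer cells and less H2A.Z per cell cannot be told apart. No expression values are used here, and how the strength relates to transcription was not tested.

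**Figure D2:**
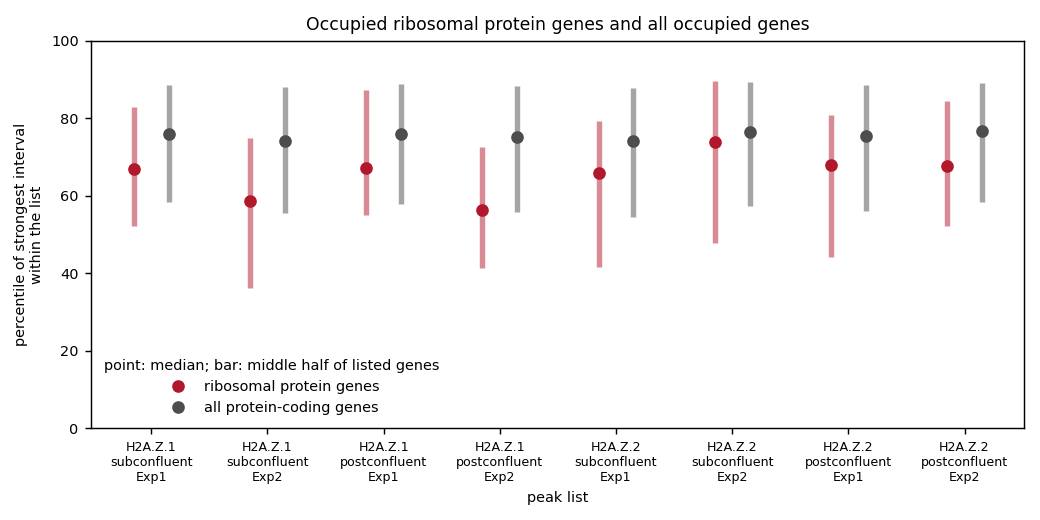
Percentile of the strongest interval (y axis) in each of 8 peak lists (x axis) for the occupied ribosomal protein genes (red) and all occupied protein-coding genes (grey); points are medians and bars the interquartile range over genes. The red medians lie between 56.4 and 73.9, below the grey median in every list.

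The family was spread over nearly the whole range. Mean percentiles of the 72 genes ran from 20.1 to 96.8, with 9 above 90, 27 above 75, 19 below 50 and 3 below 25. The SD of the percentile of 1 gene over the 8 lists was 2.30 to 26.9, with a median of 12.7; percentiles near 100 leave little room to vary. Large- and small-subunit genes had like medians of 69.4 (43 genes) and 68.1 (29 genes).

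The strongest was RPS14, a small-subunit protein whose loss on chromosome 5 underlies the anaemia of the 5q- syndrome. For H2A.Z.1 it stood at percentiles 98.8 (Exp1) and 93.7 (Exp2) before confluence, then 98.4 and 92.7 after it, and for H2A.Z.2 at 97.0 and 99.2, then 94.8 and 99.5. The authors' fold enrichment there was 10.4 to 18.5. RPL15, RPS18, RPL7L1 and RPL7 followed with means of 95.7, 92.3, 92.2 and 92.2. RPL15, a large-subunit protein, stood at 92.9 and 93.3, then 99.1 and 93.6 for H2A.Z.1 and 95.5 and 97.2, then 96.3 and 97.9 for H2A.Z.2. The groups of both genes overlapped in state and in isoform.

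The weakest was RPS3, a small-subunit protein at the mRNA entry channel that also acts in DNA repair. It stood at 43.1 and 15.0 (subconfluent) and 27.0 and 8.34 (postconfluent) for H2A.Z.1, and at 30.7 and 24.7, then 2.37 and 9.87, for H2A.Z.2. Its fold enrichment was 3.29 to 6.81. RPS21, RPL27, RPL23 and RPL18 had means of 23, 23.3, 27.7 and 31.0. RPL27 ranged from 0.819 (H2A.Z.2 subconfluent Exp1) to 46.6 (H2A.Z.1 subconfluent Exp1) and RPL18 from 0.691 to 58.4, with the lowest value again in the H2A.Z.2 subconfluent Exp1 list.

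Genes of the ribosomal stalk, which recruits translation factors to the large subunit, did not stand together. RPLP1 and RPLP2, the acidic stalk proteins, had mean percentiles of 92.1 ± 3.24 and 92.0 ± 6.44 (SD, n = 8 lists each). RPLP0, which anchors them to the ribosome, was at 60.8 ± 21.5. For H2A.Z.1 RPLP0 stood at 45.3 and 72.5 before confluence, then 26.1 and 42.2 after it, and for H2A.Z.2 at 77.2 and 89.2, then 58.2 and 75.7. In each state both H2A.Z.2 lists of RPLP0 were above both H2A.Z.1 lists.

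The genes made as fusions differed likewise. RPS27A, which is translated as a fusion with ubiquitin, was at 82.5 ± 12.8, and FAU, a fusion with a ubiquitin-like protein, at 32.7 ± 8.88 (SD, n = 8 lists each). FAU stayed between 21.6 and 51.8. RPL5 and RPL11, which form a particle with 5S rRNA that binds the p53 regulator MDM2, had means of 55.7 (7 lists) and 62.0 (8 lists). RPS6, the target of S6 kinase, was at 67.8 ± 13.7, and RPS19, the gene most often mutated in Diamond-Blackfan anaemia, at 67 ± 17.6. RPSA, which also serves as a laminin receptor, was at 45.4 ± 12.1 and the X-linked RPL10 at 41.6 ± 19.2 (SD, n = 7 lists each).

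The 8 paralogs fell into separate ranges. RPL7L1, which acts in ribosome assembly, was at 92.2 ± 6.51, and RPS27L, a p53 target, at 89.9 ± 7.90. RPL22L1, a partly redundant partner of RPL22, was at 81.2 ± 14.2, and RPL36AL at 71.5 ± 18.3 (SD, n = 8 lists each). RPL22 itself was at 49.8 ± 17.9. RPL3L, known from heart and skeletal muscle, was occupied in all 8 lists at 51.7 ± 15.7, but its strongest interval also lay within 1 kb of an end of MSRB1. RPL10L and RPL39L, known from testis, and RPL26L1 were occupied in no list. RPL26L1 was a matter of annotation: its gene model begins 4635 bp before the first RefSeq start listed for it, and an interval lay within 1 kb of that start in 8 of 8 lists, while the nearest interval to the ends of the model was 2366 to 4352 bp away.

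Few core genes were missing. RPS16 had no interval among those used. In the unreduced lists it had one in 5 of 8, at percentiles 7.76 and 7.14 (H2A.Z.1 subconfluent), 30.0 and 13.9 (H2A.Z.1 postconfluent) and 8.36 (H2A.Z.2 postconfluent Exp2). RPL39L had one in 4 and RPL10L in 1 of the 8 unreduced lists. With the unreduced lists 80 of 86 (93.0%) were occupied in all 8, against 58.1% of all genes, and only RPL26L1 in none.

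A further 10 genes were missing from 1 to 3 of the reduced lists. RPS2, RPL5 and RPL10 were missing from H2A.Z.2 subconfluent Exp1, RPL8 from H2A.Z.2 postconfluent Exp1, and RPSA and RPL34 from H2A.Z.1 subconfluent Exp2. RPS24 was missing from both H2A.Z.1 subconfluent Exp2 and H2A.Z.2 subconfluent Exp1. RPL14 was missing from both H2A.Z.2 postconfluent lists, RPL17 from both H2A.Z.2 subconfluent lists, and RPL38 from both H2A.Z.2 postconfluent lists and H2A.Z.1 postconfluent Exp2. Where these 10 were listed, their means were 34.5 (RPL34) to 61.5 (RPS2).

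A gene present in both lists of a group and absent from both of another group that differs in 1 factor is the sharpest difference such lists can show. Among the 86 genes there were 5 such cases over 4 pairs of groups. Over all genes there were 732 among 79896 gene and pair combinations (0.916%). That background includes the 32.9% of all genes occupied in no list, which cannot show such a case, against 4.65% of the family. The count of 5 was therefore not read as an excess. RPL17 was in both postconfluent lists of H2A.Z.2 (percentiles 38.3 and 19.4) and neither subconfluent one (0.666% of all genes). It was also in both subconfluent lists of H2A.Z.1 (53.8 and 33.2) and neither of H2A.Z.2 (0.651%). RPL14 and RPL38 were in both subconfluent lists of H2A.Z.2, RPL14 at 46.3 and 42.1 and RPL38 at 14 and 38.8, and in neither postconfluent one (0.431%). RPL14 was in both postconfluent lists of H2A.Z.1 (51.6 and 51.4) and neither of H2A.Z.2 (0.501%). In the other 4 directions there were 0 genes of the family, against backgrounds of 0.511% (H2A.Z.1, postconfluent only), 0.596% (H2A.Z.1, subconfluent only), 0.170% (subconfluent, H2A.Z.2 only) and 0.140% (postconfluent, H2A.Z.2 only). The comparisons share lists, the 5 cases come from 3 genes, and presence was not tested. In the unreduced lists 0 of these 5 cases were left: RPL14 and RPL38 were listed in all 8, and RPL17 in 7, with H2A.Z.2 subconfluent Exp2 missing. The count there was 1, for RPS16, which was in both subconfluent lists of H2A.Z.1 and in neither of H2A.Z.2.

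Summed interval widths at the 72 genes averaged 643 bp (RPL13A) to 2972 bp (RPL7L1), with a median of 1171 bp against 1365 bp over all genes. The sum runs over every interval at a gene, of which the family had fewer at the start. After RPL7L1 the widest were RPL4 (2077 bp), RPL41 (2036 bp), RPL7 (2025 bp) and RPL28 (1940 bp). RPL7L1 covered 3197 and 3042 bp, then 3088 and 3160 bp, for H2A.Z.1, and 3119 and 2807 bp, then 2713 and 2646 bp, for H2A.Z.2. RPL7L1, RPL4 and RPL41 were also the only 3 of 69 genes with a known strand (4.35%, against 4.52% of all genes) that had an interval within 1 kb of the far end of the gene in all 8 lists. At RPL41, whose gene model spans 1335 bp, the windows of both ends overlap.

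The H2A.Z summit lay before the start of most genes of the family. RefSeq gave exactly 1 start for 58 of the 86 genes, and 51 of these had an interval within 1 kb of it in all 8 lists. The median summit position over the 8 lists was before the start at 43 of 51 (84.3%), against 55.8% of 6402 genes chosen the same way. Per list the share was 76.5 to 90.2% for the family, 47.6 to 58.9% for all genes and 37.5 to 51.8% for 56 mitochondrial ribosomal protein genes. The share was above that of all genes in each of the 8 lists. The 17 genes for translation factors had 64.7 to 88.2%, and in the biogenesis list the summit was before the start at 18 to 27 of 36. Values of the family and the mitochondrial genes did not overlap over the lists, while those of the translation factors did overlap the family's. No test of these shares was run.

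**Figure D3:**
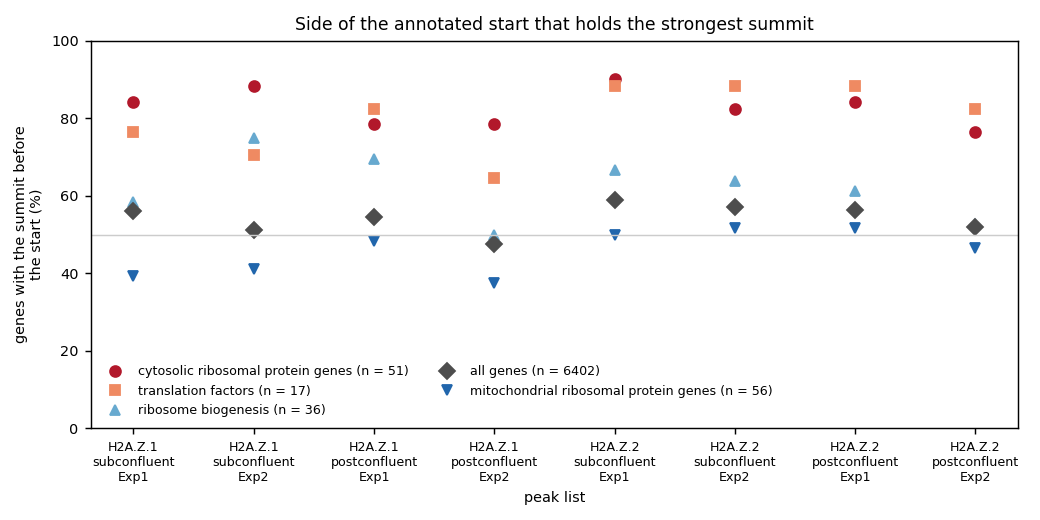
Share of genes (y axis, percent) whose strongest interval at the single RefSeq start has its summit before that start, in each of 8 peak lists (x axis), for 5 gene groups with the number of genes in the legend. Cytosolic ribosomal protein genes lie at 76.5 to 90.2%, all genes at 47.6 to 58.9%.

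In distance, with negative positions before the start, the median summit of the family was at −292 to −229 bp in the 8 lists, with median interval edges at −906 to −702 bp and 261 to 456 bp. For all genes the edges were at −728 to −565 bp and 409 to 629 bp. The summit was before the start in 8 of 8 lists at 33 of 51 genes (64.7%, against 29.0% of all genes) and after it in 8 of 8 at 3 (5.88%, against 22.4%), while 15 were mixed. At FAU it stayed within −312 to −279 bp. At RPLP1 it was at −367 to −281 bp, and at RPS14 at −196 to −140 bp. At RPL41 it was at −732 to −606 bp in 6 lists but at −96 and −68 bp in H2A.Z.1 subconfluent Exp1 and H2A.Z.2 subconfluent Exp2. The 3 genes with the summit after the start in every list were RPS26 (92 to 223 bp), RPS4X (63 to 242 bp) and RPL27 (143 to 245 bp). RPS3, the weakest gene, had its summit at −265 to −38 bp over the 8 lists.

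**Figure D4:**
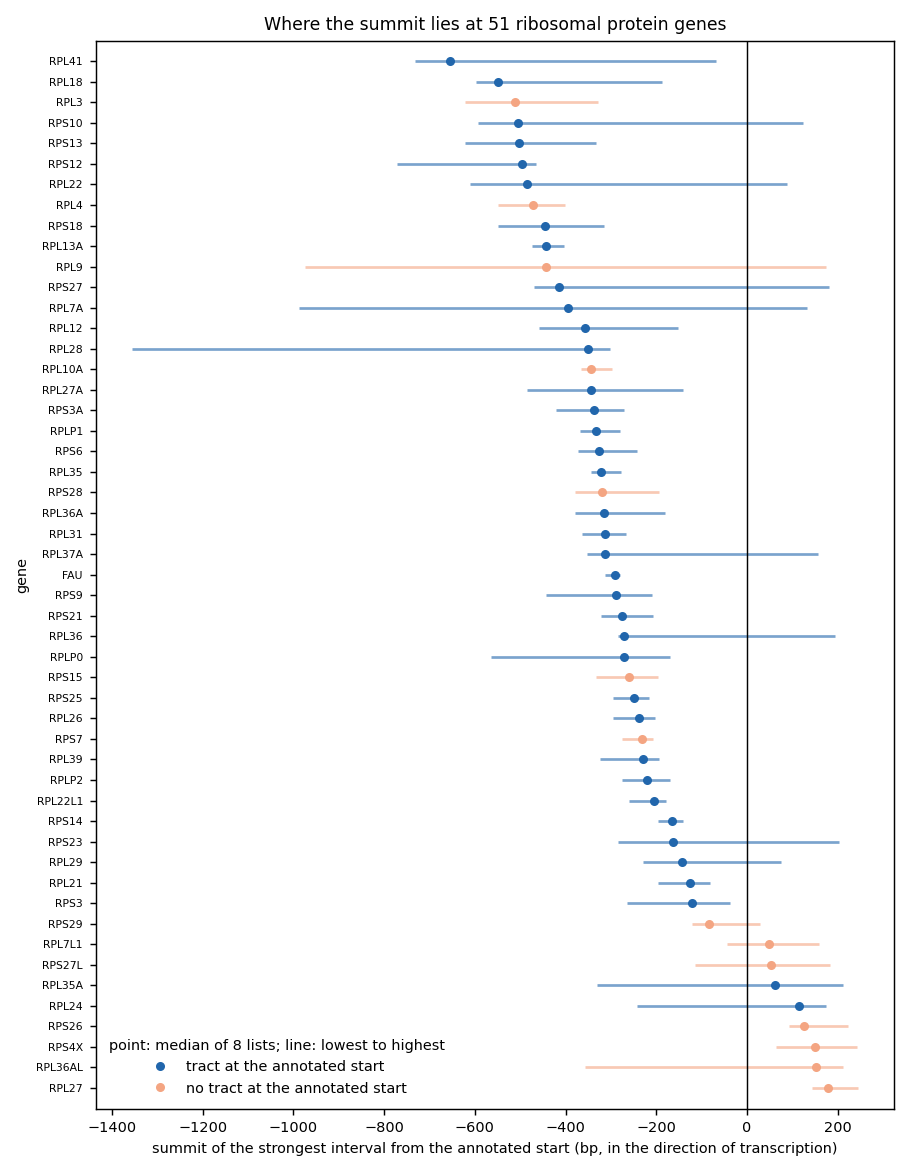
Summit of the strongest interval relative to the single RefSeq start (x axis, bp, negative before the start) at 51 ribosomal protein genes (rows); points are medians of 8 lists, lines run from the lowest to the highest list, and blue genes have a tract at the start. Of the 51 points 43 are left of 0, and 35 of the 37 blue ones.

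At some of these genes the strongest interval also lay near a neighbouring gene. The same share over all genes was not computed, so it is not known whether the family stands apart here. At 27 of the 72 genes occupied in all 8 lists the strongest interval was within 1 kb of another gene's end in at least 4 lists, such as VPS52 beside RPS18, ARPC5L beside RPL35, MRPL49 beside FAU and LIAS beside RPL9. For RPS10 the other gene was the read-through RPS10-NUDT3. Genes with such a neighbour had a median percentile of 71.5, and the other 45 had 62.5. Among the 51 genes with 1 start, the summit was before the start at 20 of 21 with a neighbour (95.2%) and 23 of 30 without (76.7%). Which gene's start such an interval belongs to cannot be told apart.

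The tract at the start was common in the family. With the tract defined as a C at the start followed by at least 4 bases of C or T, 42 of 58 genes with 1 listed start had it (72.4%), against 4.59% of 11776 genes and 4 of 58 mitochondrial ones (6.90%). The summit was before the start at 35 of 37 genes with the tract (94.6%, median −314 bp) and at 8 of 14 without it (57.1%, median −158 bp). In genes outside the family, it was before the start at 56.6% of 318 genes with the tract and 55.5% of 6033 without. The list of other TOP mRNA genes was measured from the first listed start of each gene. Of its 9 genes with an interval there in all 8 lists, the summit was after the start at 0 (median −429.5 bp). By that measure it was after the start at 13 of 59 family genes (median −272.5 bp) and 4123 of 8821 genes. Whether these 9 genes carry the tract as defined here is not given. These differences were not tested, and only 14 family genes lacked the tract. Of these, RPL27, RPL36AL and RPS26, with the summit after the start, still had runs of 16, 15 and 9 bases of C or T near it. Split instead by a run of at least 8 bases, the summit was before the start at 38 of 43 family genes with the run (88.4%) and 5 of 8 without (62.5%). The 8 genes without the tract but with the summit before the start were RPL3, RPL4, RPL9, RPL10A, RPS28, RPS15, RPS7 and RPS29. The median percentile was 71.9 at the 37 genes with the tract and 66.2 at the 14 without it, which was not tested either.

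For 11 genes RefSeq gave several starts, and for some of these the side depended on the start used. At RPL15 the summit was at 144 to 334 bp from the first start and at −409 to −219 bp from the second, which lies 553 bp further on. At RPS27A it was at 162 to 689 bp from the first start and at −623 to −96 bp from the last, 785 bp further on, which carries a tract of 6 bases. RPS19 and RPL13 had the summit before each of their starts in all 8 lists. RPL6 had no interval within 1 kb of its first start, and a summit at −478 to −66 bp from its second in all 8 lists. That second start is 4104 bp from the nearest end of the gene model, and the first is farther from either end, so the interval that ranks RPL6 above is one at the end of the model, beside PTPN11.

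Other letters were searched on both strands in the 300 bases from 250 before the start. CCGGAAG, the core of sites for ETS factors, was in 31.0% of the 58 genes, 15.0% of all genes and 43.1% of the mitochondrial ones. AAGATGGC, read by YY1, was in 13.8%, 4.21% and 31.0%. CCAAT (32.8% against 37.2%), GGGCGG (60.3% against 58.7%) and CACGTG (5.17% against 8.85%) were about as frequent as in all genes. TATAAA between 40 and 20 bases before the start, on the gene's strand only, was in 6.90% against 4.41%. The median GC content was 60.2% against 62.7%. A match is a description of the letters.

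Small nucleolar RNAs, which guide rRNA modification, lie inside 29 of the 86 genes. Among those occupied in all 8 lists, 24 hosts had a median percentile of 61.9 and 48 others 70.5. The 11 such genes on chromosome 19 had a median of 48.0 and the 61 elsewhere 71.9, whereas all 787 genes of chromosome 19 had 73.9. The highest of the 11 was RPL28 at 73.6 and the lowest RPL18 at 31.0.

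Which of these genes changed with differentiation was tested on ranks. Strongest intervals of the 10919 genes present throughout were ranked by fold enrichment, list by list, and ranks were converted to normal scores, in SDs of a normal distribution. With limma, 0 of the 72 ribosomal protein genes changed between states as the mean of both isoforms, with 0.0550% of all genes past a Benjamini-Hochberg adjusted p of 0.05. At an unadjusted p under 0.05 there were 3 (4.17%), against 9.13% of all genes. The median difference of the family was −0.03, and 33 of 72 were above 0, against 49.9% of all genes. Here too the experiments differed in sign, with 42 of 72 above 0 in Exp1 (median 0.10) and 29 of 72 in Exp2 (median −0.16). The labels do not say whether the samples of a group were separate cultures, so p-values measure the spread between these samples.

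The 3 smallest p-values belonged to RPL22L1, RPL29 and RPLP0. RPL22L1 stood at percentiles 88.3 and 89.4 (H2A.Z.1) and 86.9 and 98.9 (H2A.Z.2) in subconfluent cells, against 73.9 and 52.6, then 73.6 and 85.9, in postconfluent cells. Every postconfluent value was below every subconfluent one, and the score difference was −1.19 (SE 0.383, limma adjusted p = 0.331), lower in 4 of 4 comparisons of lists that share isoform and experiment number. RPL29, a large-subunit protein, stood at 68.5, 47.5, 52.3 and 42.9 in subconfluent cells and at 7.35, 42.5, 12.6 and 11.3 in postconfluent cells. Its difference was −1.13 (SE 0.375, limma adjusted p = 0.337). For RPLP0 it was −0.81 (SE 0.380, limma adjusted p = 0.531), but 0.14 with windows of 2 kb. None of the 3 passed.

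Within H2A.Z.1, 0 of 72 changed between states (0% of all genes), and 2 were at an unadjusted p under 0.05 (2.78%, against 6.91% of all genes). RPL22L1 had −1.25, RPL36AL −1.32 and RPL29 −1.08 (limma adjusted p = 0.690, 0.705 and 0.732). Within H2A.Z.2, 0 changed (0% of all genes) and 3 were at an unadjusted p under 0.05 (4.17%, against 5.83%). RPS6 had −1.27, with percentiles of 80.0 and 89.9 before and 56.0 and 59.4 after confluence, RPL29 −1.17 and RPL22L1 −1.13 (limma adjusted p = 0.832, 0.832 and 0.848). The state change of 1 isoform minus that of the other passed for 0 of 72 (0% of all genes), and 0 were at an unadjusted p under 0.05 (against 3.18%). There RPS23 had −1.50 and RPS6 −1.31, each at a limma adjusted p of 1.00.

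Between isoforms, as the mean of both states, 0 of 72 differed (0% of all genes), and 3 (4.17%, against 3.75% of all genes) were at an unadjusted p under 0.05. Both Exp1 pairs compare sequencing runs as well, since the interval names put the Exp1 lists of H2A.Z.1 in one run and those of H2A.Z.2 in another, so isoform and run cannot be told apart there. All 4 Exp2 lists came from another run. Each isoform was tagged in its own edited line. Isoform and line therefore cannot be told apart in either experiment, for scores or for widths. RPLP0 had the smallest p: H2A.Z.2 was above H2A.Z.1 by 1.17 (SE 0.380, limma adjusted p = 0.999), with 1.34 in Exp1 and 0.99 in Exp2. RPS20 had 0.90, with 1.26 in Exp1 and 0.54 in Exp2, and RPL37 0.87, with 0.27 in Exp1 and 1.48 in Exp2. The median difference of the family was 0.17, with 47 of 72 above 0, against 0.00 and 50.01% for all genes. The experiments went opposite ways. In Exp1 26 of 72 were above 0, with a median of −0.14 (48.9% of all genes), and in Exp2 55 of 72, with a median of 0.54 (50.5% of all genes).

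**Figure D5:**
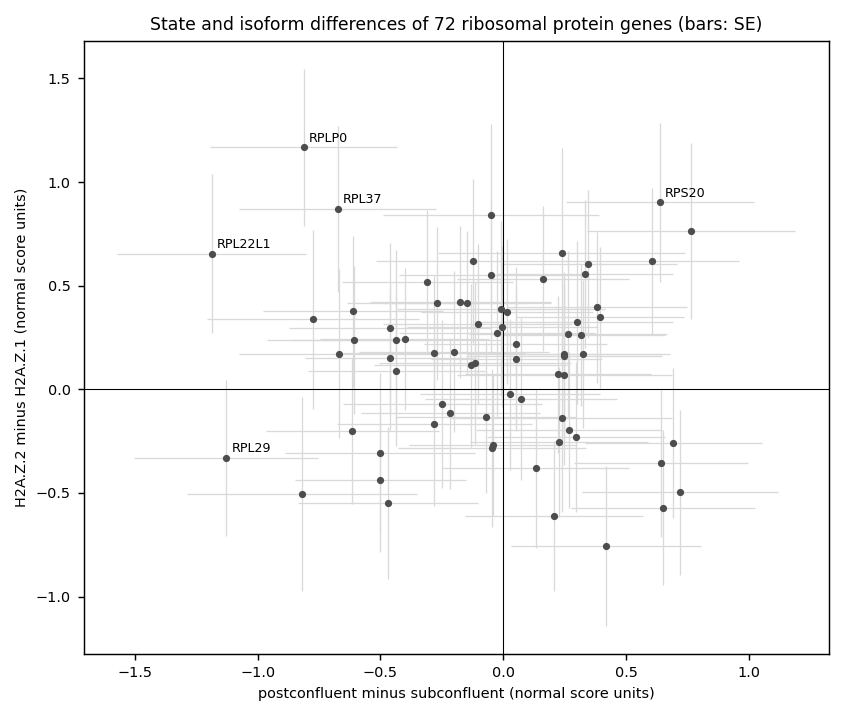
Score difference between states (x axis) and between isoforms (y axis), in SDs of a normal distribution, for 72 ribosomal protein genes; bars are limma standard errors. Named points have the 3 smallest p-values on an axis, and no point passed the adjusted threshold on either.

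Within subconfluent cells, 0 of 72 differed between isoforms (0% of all genes) and 4 were at an unadjusted p under 0.05 (5.56%, against 3.71% of all genes). RPL18 had −1.36 (Exp1 −2.05, Exp2 −0.68), RPS20 1.21 and RPL37 1.23 (limma adjusted p = 0.999 each). Within postconfluent cells, 0 differed (0% of all genes) and 1 was at an unadjusted p under 0.05 (1.39%, against 3.53%), RPLP0 at 1.19 (Exp1 1.21, Exp2 1.17), followed by RPS21 at −0.97 and RPL24 at 1.03 (limma adjusted p = 0.999 each).

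Widths were tested likewise. Between states 0 of 72 widths changed, with 0.0458% of all genes past the threshold, and 4 were at an unadjusted p under 0.05 (5.56%, against 10.8% of all genes). RPL11 had −0.49, RPL18 −0.83 and RPL10A 0.52 (limma adjusted p = 0.406, 0.432 and 0.451). Between isoforms 0 changed (0% of all genes) and 4 were at an unadjusted p under 0.05 (5.56%, against 8.42% of all genes). RPS3A, a protein of the small subunit, had the smallest p, with 1610, 1430, 1709 and 1736 bp for H2A.Z.1 and 1301, 666, 839 and 945 bp for H2A.Z.2. The groups did not overlap, and the score difference was −1.12 (SE 0.208, limma adjusted p = 0.454), with −0.98 in Exp1 and −1.26 in Exp2. RPS15 covered 675 to 1023 bp for H2A.Z.1 and 294 to 541 bp for H2A.Z.2, a score difference of −1.01 (SE 0.201, limma adjusted p = 0.454). Over all occupied genes the median width was 1224 to 1435 bp in the H2A.Z.1 lists and 1044 to 1351 bp in the H2A.Z.2 lists. Widths in bp therefore also hold a difference between whole lists, while the scores are ranks within a list. Within H2A.Z.1 alone 0 of 72 widths changed between states, with 0.00916% of all genes past the threshold, and RPL35, a large-subunit protein, had the smallest p (difference 0.92, SE 0.325, limma adjusted p = 0.693). Within H2A.Z.2 alone 0 of 72 widths changed (0% of all genes), and RPS15, a small-subunit protein, had the smallest p (difference −0.99, SE 0.284, limma adjusted p = 0.450). RPL6, measured beside PTPN11, had −0.85 between isoforms (limma adjusted p = 0.583).

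The other genes of protein synthesis gave the same count. In lists for RNA polymerase I (20 genes measured), ribosome biogenesis (50), translation factors (31), other TOP mRNAs (13), regulators and chaperones of ribosomal protein genes (19) and mitochondrial ribosomal proteins (73), limma called 0 genes higher and 0 lower between states as the mean of both isoforms. Over all genes the share called there was 0.0550%, so 0 calls do not set these lists apart. At an unadjusted limma p under 0.05 were 5 of 19 regulators and chaperones and 2 of 20 RNA polymerase I genes. So were 2 of 50 biogenesis and 4 of 73 mitochondrial genes, 0 of 31 translation factors and 0 of 13 other TOP mRNA genes. The share of all genes in this contrast is given above beside that of the family. Differences between these lists were not tested. The smallest p in the biogenesis list was that of NOP56, a box C/D snoRNP protein, at 1.09 (SE 0.345, limma adjusted p = 0.318), and among regulators that of GABPA, an ETS factor, at 1.12 (SE 0.375, limma adjusted p = 0.337). MRPS25 had 1.49 (SE 0.381, limma adjusted p = 0.208).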

How the data were processed

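ChIP-seq with an antibody to Flag and spike-in chromatin was sequenced as single reads of 85 bp, per the labels' protocols. Of 17 samples, 8 Flag samples had a peak list. The other 9, 8 of total H2A.Z and 1 input, were not analysed here. The submitters' processing notes name BWA, deepTools and hg38. The sources used here name neither the peak caller nor its control. Each deposited narrowPeak list holds, per interval, a score (10 times the −log10 q), a fold enrichment (a ratio), a −log10 p, a −log10 q and the position of the summit inside the interval. These are the authors' own values, and the lists were called per sample.

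From the deposited lists, gene windows, percentiles and normal scores were computed in Python 3.11.15 (pandas 2.3.3). Contrasts of 4 group means were tested with limma 3.58.1 in R 4.3.3, two-sided, with Benjamini-Hochberg adjustment over 10919 genes, and the scripts were tested on simulated data. Gene ends came from RefSeq on GRCh38.p14, the assembly of hg38. Starts and promoter sequences also came from RefSeq, and 69 of 86 genes had one. Genes without values in all 8 lists stayed out of the limma tests.

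Genes given with values were those missing from a list, the 5 strongest, 5 weakest and 5 widest, the 3 of smallest p in each contrast (1 is not reported here), those listed in only 1 of a pair of groups, and a list chosen by role. RPS14, RPS3, RPLP1, RPL41, RPL27, RPS4X, RPS16, RPS26 and the other genes of the position paragraphs, RPL22 and the chromosome 19 genes were chosen after their values were seen. Members and lists were chosen with earlier results of these data known. The restriction of positions to genes with 1 listed start, and its alternatives, were chosen after seeing the data. Alternatives varied list length, window, ranking, filter, replicate block and the samples used.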

Additional observations from a re-analysis of the deposited data

How the results depend on the processing

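In 9 contrasts and 160 refits, limma called 0 of the ribosomal protein genes. Of 436 values of single genes under an alternative, 435 kept their direction and their side of the threshold. The exception was RPLP0 between states, which turned to 0.14 (limma adjusted p = 0.939) with windows of 2 kb. The cause was not tested. Over all genes, calls between states were 6 for scores, 44 with intervals ranked by −log10 p, 14 with the replicate block and 0 with 15301 intervals a list. For widths they were 5, and 39 without the filter.

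The number occupied in all 8 lists fell to 41 with 15301 intervals a list (47.7% against 37.9% of all genes) and 40 at equal covered length (46.5% against 40.2%), where fewer intervals were used, and was 72 to 75 without 1 list each. The 5 cases of a gene listed in only 1 of a pair of groups became 1 with unreduced lists, 10 with 15301 intervals, 8 at equal covered length, and 3 with windows of 2 kb, 3 with windows of 500 bp and 3 with the summit required inside. Without 1 list each the count was 5 to 12, reaching 12 when the Exp2 list of H2A.Z.2 in subconfluent cells was left out and 10 for the Exp1 list of H2A.Z.1.

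The family's median percentile was 78.9 with unreduced lists (83.7 for all genes), 48.0 with 15301 intervals (61.5) and 51.8 at equal covered length (64.4), lower than all genes in 8 of 8 lists each time, and 64.4 to 66.9 without 1 list each. The summit was before the start at 24 of 29 genes with 15301 intervals (82.8% against 57.0%), 25 of 29 at equal covered length (86.2% against 56.8%), and 43 to 44 without 1 list each. With the first listed start of every gene it was 46 of 59 (78.0% against 53.2%), and with the most downstream start 50 of 60 (83.3% against 58.9%).

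Same-numbered experiments had correlations of deviations from −0.05 to 0.21. The highest were between the states of H2A.Z.1 (0.21) and of H2A.Z.2 (0.16), whose same-numbered lists share a sequencing run. The other 4 were at most 0.05, so the numbers were not taken as pairs over all groups. With the replicate block 0 ribosomal protein genes were called in any of the 9 contrasts, with a smallest limma adjusted p of 0.255 between states. That block sets Exp1 against Exp2 over both isoforms, so it does not model the sequencing runs within an isoform. A fit with pairs inside each isoform was not run. Read depth behind the lists is unknown, and 2 lists a group limit the precision.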
